A study of Mus musculus with 24 samples.

Results

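Transcripts of 9 mouse genes for sugar digestion and uptake were followed across colon and ileum epithelium: the disaccharidase genes Sis, Lct, Mgam and Treh, the transporter genes Slc5a1, Slc5a9, Slc2a2 and Slc2a5, and the fructose kinase gene Khk. They are the rows with these symbols among the 24421 rows of the deposited gene table, and all 9 were found. Slc5a9 was chosen by its own values, for a larger difference between KO and WT in colon than in ileum, so its values are described here without a test, and the other 8 were tested. The study sorted epithelial cells of C57BL/6 mice aged 8 to 14 weeks, taken as CD45-negative cells with a tomato reporter under Villin, and sequenced colon and ileum of 12 mice in 24 libraries. KO late is KO at 8 weeks after chimerism (3 mice), KO early is KO at 2 weeks (4 mice), WT irradiated is wild type at 8 weeks (2 mice), and WT non-irradiated is wild type without irradiation (3 mice). KO early and WT irradiated therefore differ in time as well as genotype, and the parts of time and genotype cannot be told apart. The series title names gut macrophages deficient in IL-10Rα and an epithelial response driven by IL-22, the sample labels only say KO, and the design text speaks of colonic macrophages although each sample is labelled as epithelium. The sources used here do not say how the chimeras were made or which of their cells carried the deletion. Each number in the titles occurs once in colon and once in ileum and is taken here as 1 mouse.

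In the small intestine, dietary sugars are cut at the brush border and then carried into the enterocyte. Sucrase-isomaltase (Sis) and maltase-glucoamylase (Mgam) finish the digestion of starch and sucrose, lactase (Lct) cuts milk sugar and trehalase (Treh) cuts trehalose. The sodium-glucose cotransporter Slc5a1 takes up glucose and galactose, Slc2a5 takes up fructose, Slc2a2 lets sugars leave on the blood side, Slc5a9 is a related sodium-dependent sugar carrier studied mostly with mannose, and ketohexokinase (Khk) phosphorylates fructose inside the cell. Absorption of sugars is mainly a task of the small intestine, and lactase is highest before weaning.

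Library depth was 8321726 to 18692951 reads assigned to genes (median 13224062). Each value is a read number scaled by the size factor of its library and is called normalised reads below. The epithelial genes Vil1 and Epcam had at least 10192.5 and 12262 normalised reads in each of the 24 libraries, while the leukocyte gene Ptprc had at most 472. Of 10 colonocyte markers, 10 were higher in colon than in ileum in WT mice, and of 8 markers of the distal ileum 7 were lower. These directions match the tissue labels. The lists were chosen with earlier results of these data known, so this is not an independent check of the labels. The ribosomal transcript Rn45s took 0.0642 to 29.4% of the reads.

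Levels were compared between genes per kilobase of transcript, as medians of normalised reads. In the 12 colon libraries the order began with Mgam (1084 per kb), Slc5a1 (578.8) and Slc5a9 (105.3), with Sis after them (42.3). The place of Slc5a9 came from the KO libraries: its median was 155.3 per kb in the 7 KO colon libraries and 40.9 in the 5 WT colon libraries, where Sis had 61.0 and Khk 53.6. Khk had 37.6 per kb in colon, and Slc2a5, Treh, Lct and Slc2a2 had medians of 14.5, 11.6, 8.06 and 7.86 per kb with overlapping ranges. The median over the 12 ileum libraries was highest for Mgam (12460 normalised reads per kb, range 7805 to 20350) and Sis (11360, range 5818 to 23420), followed by Slc5a1 (7394, range 4745 to 17780). These ranges overlapped one another. Khk (680.4 per kb), Lct (660.2) and Treh (589.6) formed the next tier, below every Slc5a1 library and not separated from each other, since Lct alone ran from 78.9 to 2139. Their order differed by genotype. In the 5 WT ileum libraries the medians per kb were 1455 for Lct, 931.3 for Khk and 638.6 for Treh. In the 7 KO ileum libraries they were 389.1 for Lct, 439.8 for Khk and 556.0 for Treh. Slc2a5 (269.9), Slc2a2 (230.2) and Slc5a9 (144.1) came last in ileum, with ranges that also overlapped the tier above. Treh, Slc5a1 and Slc2a2 overlap other annotated genes and Mgam lies near a pseudogene copy, and the sources used here do not say whether counting used strand, so their levels are uncertain to that extent.

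**Figure D1:**
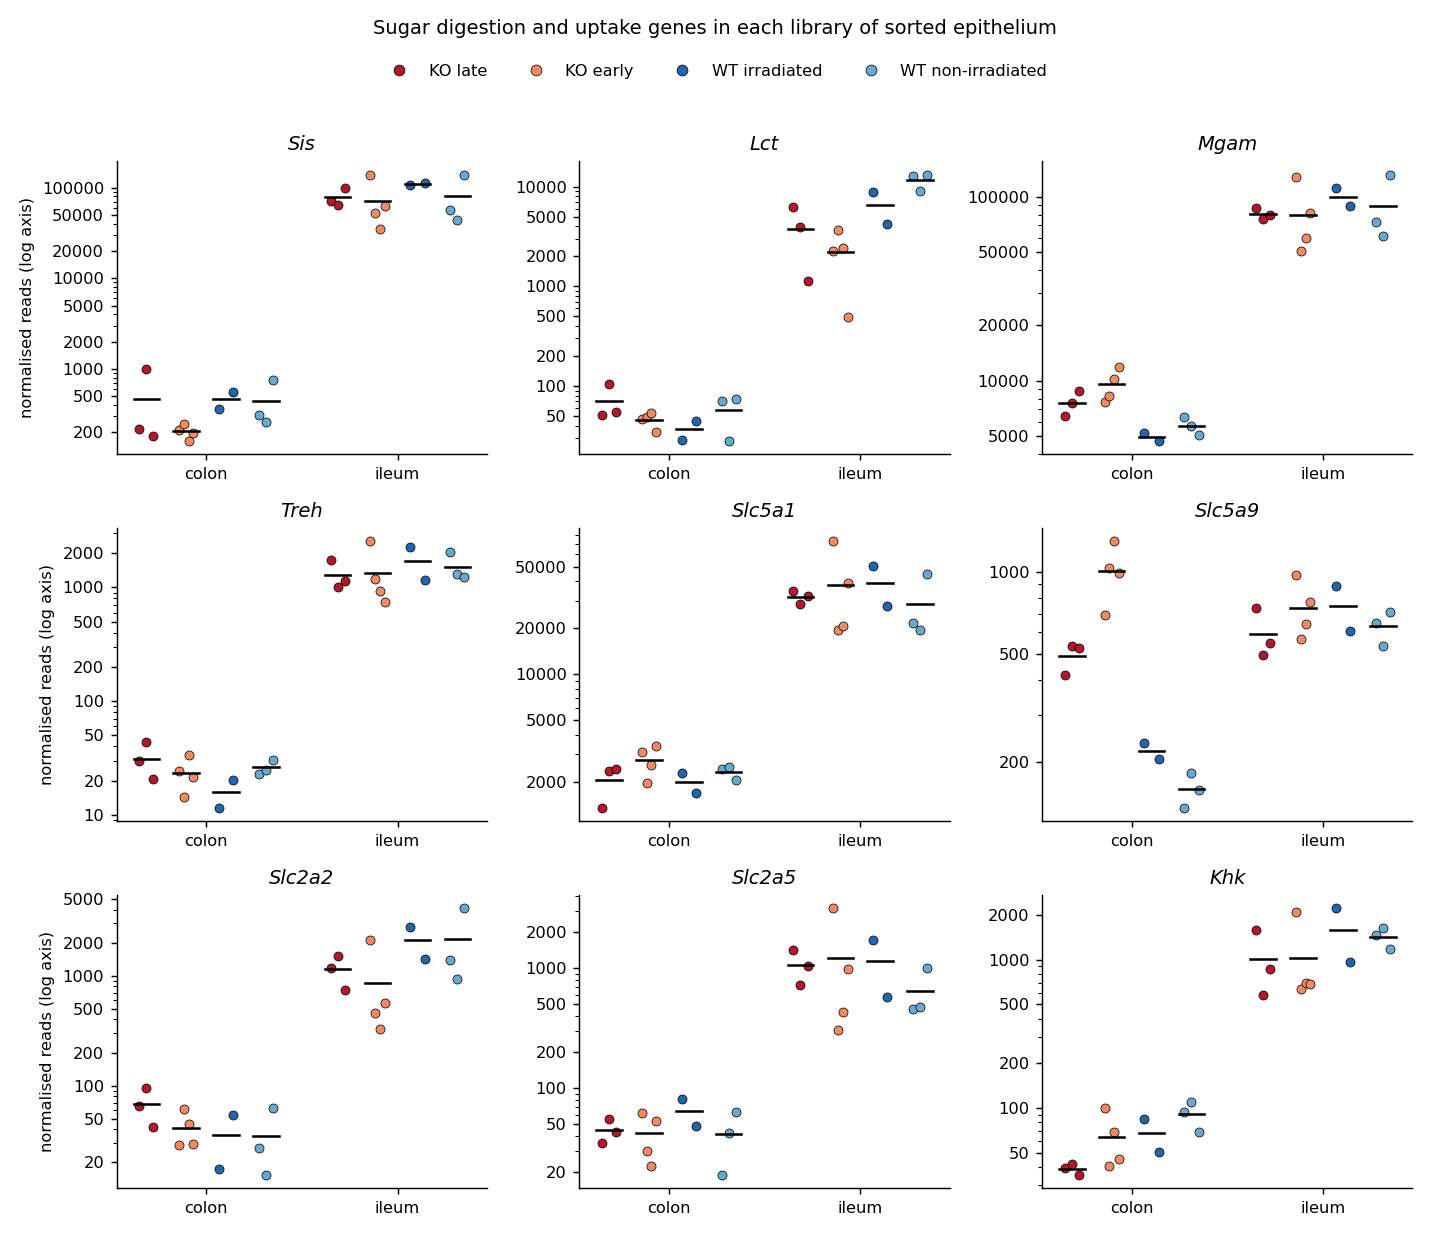
Normalised reads of the 9 genes in each of the 24 libraries, on log axes that differ between panels. Points are libraries, bars are group means, and colours are the 4 conditions in colon and ileum. Of the 9 genes only Slc5a9 has KO colon libraries at the level of ileum, and Mgam has all 7 KO colon libraries above the 5 WT colon libraries.

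All 8 tested genes were lower in colon than in ileum, by 10.7- to 227-fold in KO late, 7.97- to 310-fold in KO early and 14.9- to 209-fold in WT mice. Among all 19588 genes tested, 28.0% passed in KO late, 14.2% in KO early and 21.6% in WT, the mean of both WT groups. The test was limma on log2(normalised reads + 1) with Benjamini-Hochberg adjustment over all genes, a call needed an adjusted p under 0.05, and fold values on this scale understate changes of low genes. With mouse as a block, 9632 genes passed in KO late, against 5494 without it, and 8 of the 8 passed in both. The median of the 8 log2 differences, colon minus ileum, was -4.52 in KO late, -4.18 in KO early and -5.06 in WT, beside 0.07, -0.09 and 0.00 over all genes tested. In bulk epithelium such as this, fewer cells of a type and less RNA per cell cannot be told apart.

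Sis and Lct had the largest tissue differences in WT. Over the 12 mice Sis had 159.2 to 1002 normalised reads in colon (median 252) and 34636 to 139449 in ileum (median 67649). The colon level was 0.156 to 1.55% of the ileum level of the same mouse, and no colon library overlapped the ileum range. The log2 difference of Sis was -7.83 ± 0.55 in KO late, -8.28 ± 0.47 in KO early and -7.71 ± 0.43 in WT (SE, limma adjusted p = 4.78e-12 in WT), the last a level 209-fold lower in colon. Lct had 28.0 to 105.8 normalised reads in colon and 487 to 13203 in ileum, again without overlap. Its log2 difference was -5.49 ± 0.60 in KO late, -5.25 ± 0.52 in KO early and -7.56 ± 0.47 in WT. Treh had 11.5 to 43.3 normalised reads in colon and 750.3 to 2540.4 in ileum. Its log2 difference was -5.35 ± 0.40 in KO late, -5.68 ± 0.35 in KO early and -6.21 ± 0.32 in WT.

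Mgam had the highest share of its ileum level in colon among the disaccharidase genes. It had 4699 to 11898 normalised reads in colon and 50636 to 132043 in ileum. Colon held 3.82 to 17.3% of the ileum level of the same mouse (median 8.93%), while the medians of Treh, Lct and Sis were 1.77, 1.19 and 0.462%. The log2 difference of Mgam was -3.41 ± 0.31 in KO late, -3.00 ± 0.27 in KO early and -4.11 ± 0.25 in WT (limma adjusted p = 1.24e-11 in WT). Mgam was 676 to 6464% of Sis in colon libraries and 78.1 to 172% of Sis in ileum libraries, in normalised reads that are not divided by length.

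Of the tested transporter genes, Slc2a2 had the largest tissue difference in WT, and those of Slc5a1 and Slc2a5 lay within their SE of each other. Slc5a1 had 1348 to 3381 normalised reads in colon and 19475 to 72988 in ileum, and colon held 3.89 to 12.8% of the ileum level of the same mouse. Its log2 difference was -4.01 ± 0.41 in KO late, -3.61 ± 0.35 in KO early and -3.90 ± 0.32 in WT (limma adjusted p = 2.51e-09 in WT). Slc2a2 had 15.5 to 95.8 normalised reads in colon and 329.5 to 4128.5 in ileum, with log2 differences of -4.07 ± 0.63 in KO late, -4.03 ± 0.54 in KO early and -5.90 ± 0.50 in WT. Both fructose genes were lower in colon. Slc2a5, the fructose carrier, had 19.1 to 81.5 normalised reads in colon and 306 to 3157 in ileum, and differed by -4.51 ± 0.64 in KO late, -4.34 ± 0.55 in KO early and -3.96 ± 0.50 in WT. Khk had 35.5 to 108.8 normalised reads in colon and 578 to 2229 in ileum, and differed by -4.54 ± 0.43 in KO late, -3.88 ± 0.38 in KO early and -4.22 ± 0.34 in WT.

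Slc5a9 was nearer to its ileum level in colon than the other 8 genes were. Its level in colon was 57.0 to 107% of the ileum level of the same mouse in the 3 KO late mice, 71.7 to 202% in the 4 KO early mice, 26.4 to 33.9% in the 2 WT irradiated mice and 20.9 to 34.4% in the 3 WT non-irradiated mice. Colon minus ileum was -0.26 in KO late, 0.44 in KO early and -1.86 in WT on the log2 scale. These values include the contrast that chose the gene.

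**Figure D2:**
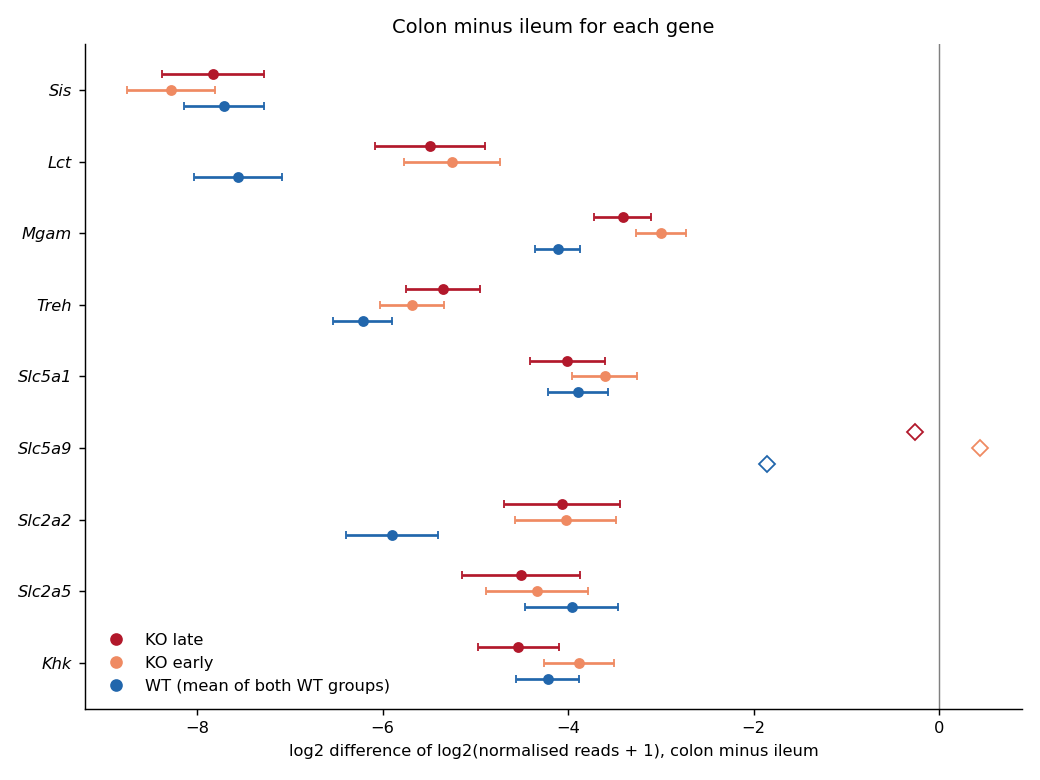
Log2 difference of log2(normalised reads + 1), colon minus ileum, for the 9 genes in KO late, KO early and the mean of both WT groups. Filled points with bars are limma estimates ± SE for the 8 tested genes, and open diamonds are Slc5a9, shown without error because it was chosen by its values. The 8 tested genes lie between -8.28 and -3.00, and Slc5a9 between -1.86 and 0.44.

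Promoter windows of 8 of the 9 genes were found in the RefSeq table for build GRCm38.p6, each with 250 bases before and 50 bases after the annotated start. Sis, Lct and Mgam are shown because they are the disaccharidase genes with the lowest and highest share of their ileum level in colon and the one whose ileum level varied most between mice. Capitals mark matches to short motifs of intestinal factors, searched on both strands. The letters GTTAAT stood for a partial site of the homeobox factor HNF1. Those searched for the caudal factors (CDX) were TTTATG. Those for the zinc finger factors of the GATA family were AGATAA. The nuclear receptor HNF4 was searched by its core, CAAAGT. The box bound by the general transcription machinery (TATA box) was searched as the letters TATAAA.
Sis (chr3:72967814-72968113, minus strand): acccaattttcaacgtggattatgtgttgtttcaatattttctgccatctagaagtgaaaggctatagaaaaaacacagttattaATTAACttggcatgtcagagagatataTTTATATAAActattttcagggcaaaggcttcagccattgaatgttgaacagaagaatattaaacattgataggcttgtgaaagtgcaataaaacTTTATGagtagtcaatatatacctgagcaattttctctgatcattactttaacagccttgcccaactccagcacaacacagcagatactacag
Lct (chr1:128328269-128328568, minus strand): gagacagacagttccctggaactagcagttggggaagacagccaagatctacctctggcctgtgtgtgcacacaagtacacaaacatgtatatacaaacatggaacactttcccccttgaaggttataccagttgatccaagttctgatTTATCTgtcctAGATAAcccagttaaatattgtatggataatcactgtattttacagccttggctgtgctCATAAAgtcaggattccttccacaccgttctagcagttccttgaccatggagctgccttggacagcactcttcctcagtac
Mgam (chr6:40628581-40628880, plus strand): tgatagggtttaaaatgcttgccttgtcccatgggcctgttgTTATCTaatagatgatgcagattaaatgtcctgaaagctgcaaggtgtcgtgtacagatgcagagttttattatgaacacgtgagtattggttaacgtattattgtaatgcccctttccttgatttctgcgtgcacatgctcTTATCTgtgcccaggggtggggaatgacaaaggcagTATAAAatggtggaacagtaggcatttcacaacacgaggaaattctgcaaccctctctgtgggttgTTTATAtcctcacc
The Sis window held the HNF1 partial site at -165 and the CDX motif at -43 from the start, and a pair of TATA box matches that overlapped each other at -138 and -134. In the Lct window the CDX motif stood at -31 and the GATA motif at -101 and -90. The Mgam window held the GATA motif at -208 and -66, and TATA box matches at -30 and 37. Of all 32851 windows, 7.10% held the HNF1 partial site, 11.9% the CDX motif, 11.2% the GATA motif, 14.4% the HNF4 motif and 13.6% the TATA box. Treh had 2 HNF4 matches, Slc2a2 had 1, Khk had 1 HNF1 partial site, and the windows of Slc5a1 and Slc2a5 held none of the 5 motifs. These matches describe the letters of the windows only.

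In WT mice, where 21.6% of all genes were called, other brush border hydrolases were mostly lower in colon. The lists of sugar handling genes named after them were less uniform between the tissues. There, 13 of 15 other brush border hydrolases were lower in colon and 0 were higher (median log2 difference -4.87), led by Enpep, an aminopeptidase, at -6.96 ± 0.25, and Enpp7, an alkaline sphingomyelinase, at -8.53 ± 0.32 (limma adjusted p = 5.95e-15 and 7.40e-15). Of 17 other sugar transporters, 5 were lower in colon, among them Slc5a11 (-3.94 ± 0.34) and Slc2a9 (-2.14 ± 0.19). Another 4 were higher, among them Slc5a3 (2.64 ± 0.22) and Slc2a13 (1.82 ± 0.17). Of 9 further genes of fructose and galactose metabolism, 4 were lower, among them Tkfc, a kinase of fructose breakdown, at -4.60 ± 0.35. Of 17 glycolysis genes, 3 were higher in colon, including the hexokinases Hk1 (2.95 ± 0.25) and Hk2 (1.73 ± 0.40), and 1 was lower, Pfkp (-0.78 ± 0.26), whose call was lost without mouse 59, 61, 72 or 75 (adjusted p up to 0.158). These 4 of 17 are a share near that of all genes. Of 8 genes of glucose release, 4 were lower, including G6pc (-4.97 ± 0.52) and Fbp1 (-2.11 ± 0.26), and 1, Pcx, was higher (1.29 ± 0.33). Among 14 transcription factors linked to sugar genes, 5 were lower, with Gata4 at -3.91 ± 0.22 and Mlxipl, the carbohydrate response factor, at -2.75 ± 0.26, and 2 were higher, among them Mlxip (1.13 ± 0.19). The 5 lists named after the hydrolases had median differences between -0.76 and 0.09, beside 0.00 over all genes tested.

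In colon, none of the 8 tested genes differed between KO late and WT irradiated at an adjusted p under 0.05 (limma, edgeR and DESeq2 0 each, 1 with an unadjusted p under 0.05), where 1.03% of 19145 genes passed. For KO early against WT irradiated the count was 0 by limma and edgeR and 1 by DESeq2, with 1 at an unadjusted p under 0.05, where 0.204% of genes passed. The median of the 8 log2 differences was 0.31 in KO late and 0.33 in KO early, beside -0.01 and 0.04 over all genes.

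Mgam was the gene nearest to a difference in colon. It had 6466, 7599 and 8758.5 normalised reads in KO late colon, 7700.5, 8312, 10291 and 11898 in KO early colon, 5177 and 4699 in WT irradiated colon, and 6319.9, 5689.7 and 5051 in WT non-irradiated colon. All 7 KO libraries were above all 5 WT libraries. The log2 difference from WT irradiated was 0.61 ± 0.27 in KO late (unadjusted p = 0.0414, limma adjusted p = 0.297) and 0.93 ± 0.26 in KO early (unadjusted p = 0.00298, limma adjusted p = 0.308). DESeq2 on the recovered reads gave 0.97 for KO early with an adjusted p of 0.00142, and over the 14 alternatives tried the adjusted p ran from 0.00142 to 1. Against the mean of both WT groups the KO early difference was 0.83 ± 0.20 (limma adjusted p = 0.0721).

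Slc5a9, the gene chosen on the KO effect in colon, had 419.9, 533 and 525 normalised reads in KO late colon, 696.5, 1039, 1296 and 989.6 in KO early colon, 235 and 206 in WT irradiated colon, and 136, 183 and 159 in WT non-irradiated colon. The KO early libraries were highest, the KO late libraries lay between, and no KO library overlapped a WT library. KO late was 2.22-fold and KO early 4.44-fold above WT irradiated on the log2(value + 1) scale, and KO late was 2.00-fold below KO early. In ileum Slc5a9 had 498 to 737 normalised reads in KO late, 570.1 to 971 in KO early, 607 to 892 in WT irradiated and 534 to 711.5 in WT non-irradiated, so all 4 ileum groups overlapped. The log2 difference from WT irradiated in ileum was -0.33 in KO late and -0.02 in KO early.

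Slc5a1, the main glucose carrier and a relative of Slc5a9, showed no such separation of the colon groups. Slc5a1 had 1348, 2333 and 2419 normalised reads in KO late colon, 3109, 1943, 2573 and 3381 in KO early colon, 2266 and 1684 in WT irradiated colon, and 2417, 2492 and 2034 in WT non-irradiated colon. Each of the 4 groups overlapped each other group. The log2 difference from WT irradiated was 0.01 in KO late (95% confidence interval -0.66 to 0.68) and 0.46 in KO early (-0.18 to 1.10). Slc5a9 was thus 21.7 to 31.2% of Slc5a1 in KO late colon, 22.4 to 53.5% in KO early colon, 10.4 to 12.2% in WT irradiated colon and 5.64 to 7.82% in WT non-irradiated colon, while it was 1.33 to 3.12% in ileum libraries.

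**Figure D3:**
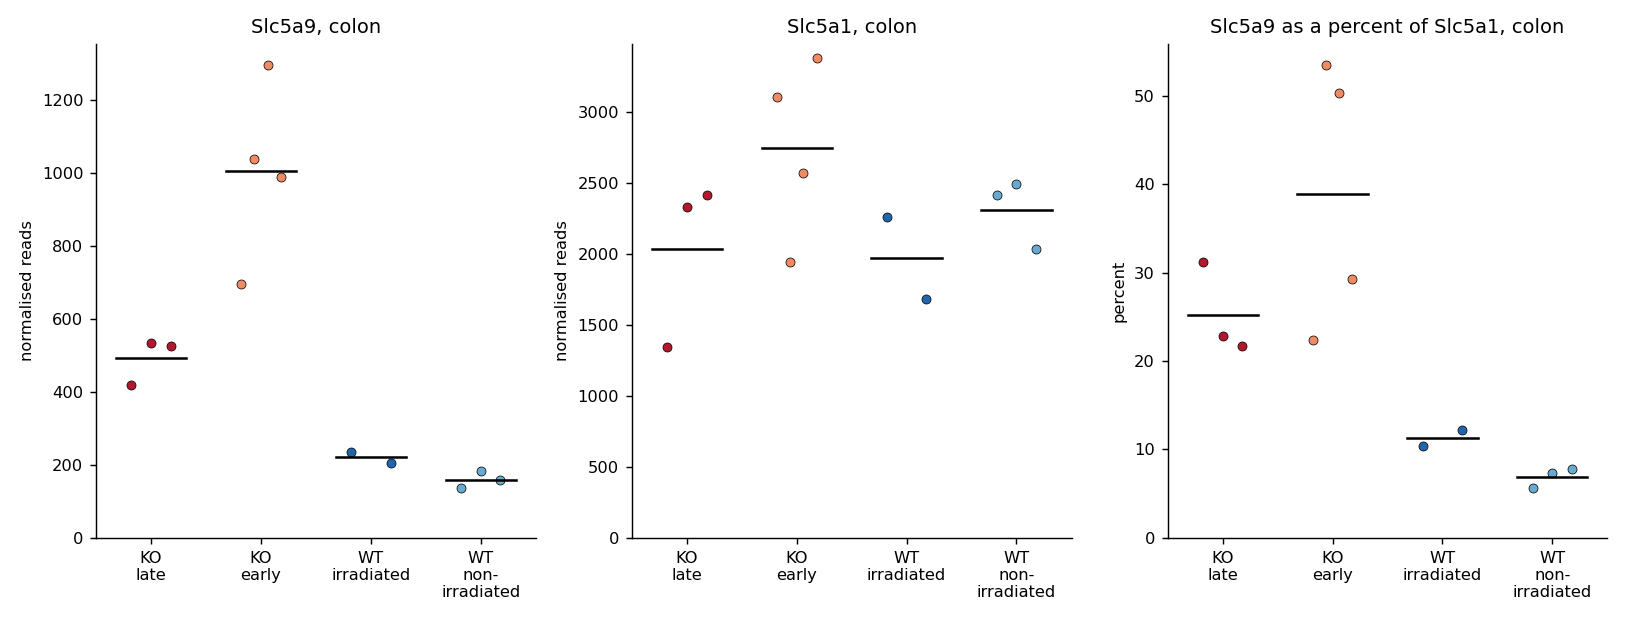
Normalised reads of Slc5a9 and Slc5a1 in the 12 colon libraries, and Slc5a9 as a percent of Slc5a1 in the same library. Points are libraries, bars are group means and all axes start at 0. Slc5a9 is 419.9 to 1296 in the 7 KO libraries and 136 to 235 in the 5 WT libraries, and the Slc5a1 groups overlap.

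The other 6 genes gave wide intervals in colon. Sis had 214, 1002 and 179.5 normalised reads in KO late colon, 212.5, 244.5, 159.2 and 198 in KO early colon, 363 and 558 in WT irradiated, and 311, 259.6 and 747 in WT non-irradiated. All 4 KO early libraries were below all 5 WT libraries, while KO late spanned from the KO early range to the highest value of any colon library. Sis differed from WT irradiated by -0.41 ± 0.61 in KO late and by -1.16 ± 0.58 in KO early (limma adjusted p = 0.688 and 0.81), and without mouse 50, the high KO late library, the KO late difference was -1.19. Khk had 39.6, 41.6 and 35.5 normalised reads in KO late colon, 100.3, 40.5, 69.1 and 45.4 in KO early colon, 84.8 and 50.6 in WT irradiated colon, and 94.3, 108.8 and 68.3 in WT non-irradiated colon. The 3 KO late libraries were below all WT libraries, with a log2 difference of -0.74 ± 0.41 from WT irradiated (limma adjusted p = 0.336) and -0.96 ± 0.33 from the mean of both WT groups (adjusted p = 0.0915). Over the 13 alternatives for Khk in KO late the adjusted p ran from 0.0915 to 0.999. Lct had 50.8, 105.8 and 55.2 normalised reads in KO late colon, against 28.8 and 44.6 in WT irradiated colon and 28.0 to 74.7 in WT non-irradiated colon. Treh had 29.7, 43.3 and 20.7 in KO late colon, against 11.5 and 20.1 in WT irradiated colon and 22.9 to 30.5 in WT non-irradiated colon. For both, KO late lay above WT irradiated but overlapped WT non-irradiated. Lct, Treh, Slc2a2 and Slc2a5 had log2 differences from WT irradiated of -0.68 to 1.04 over both KO groups, with limma adjusted p from 0.313 to 0.963.

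**Figure D4:**
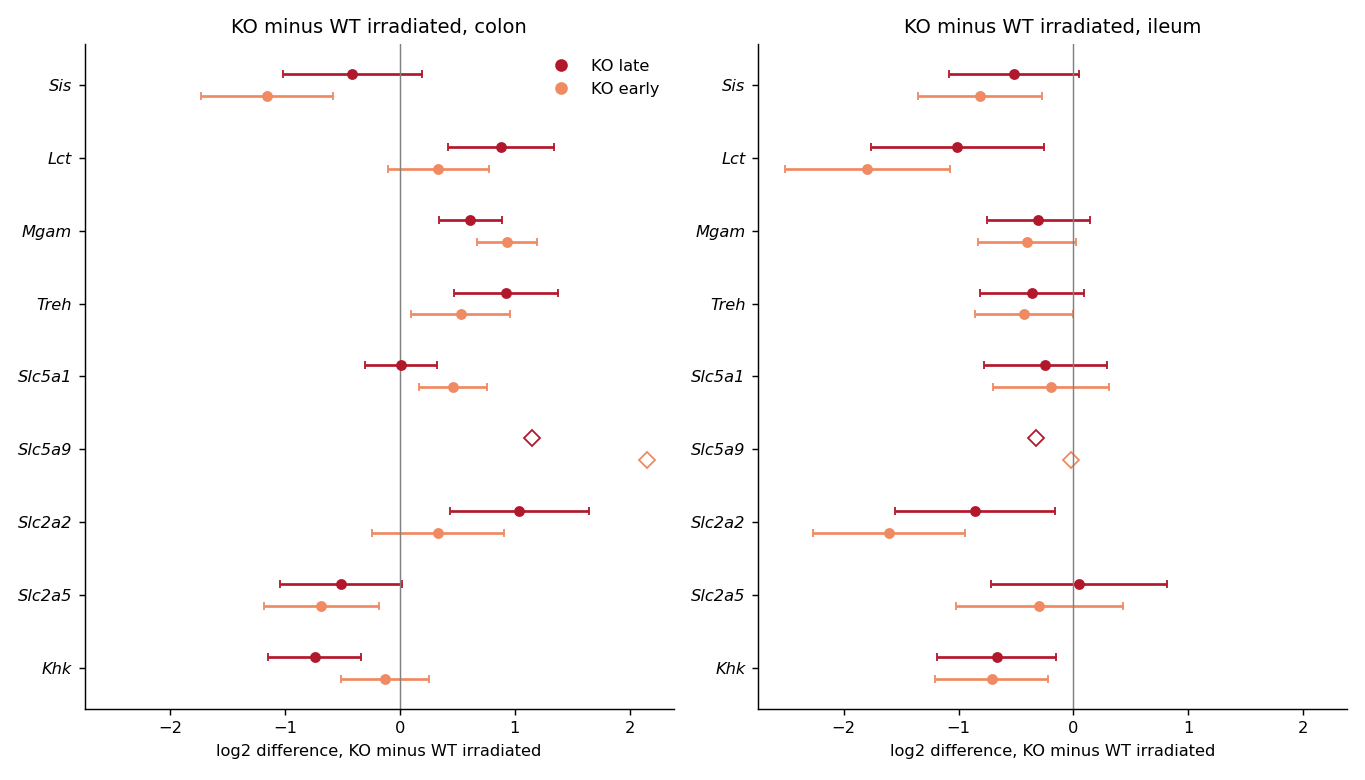
Log2 difference of log2(normalised reads + 1), KO minus WT irradiated, for the 9 genes in colon and in ileum. Filled points with bars are limma estimates ± SE for KO late and KO early, and open diamonds are Slc5a9 without error. None of the 8 tested genes passed an adjusted p under 0.05 by limma, and the lowest points are Lct (-1.79) and Slc2a2 (-1.61) in KO early ileum.

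In ileum, 0 of the 8 genes passed in KO late against WT irradiated and 0 in KO early against WT irradiated, by limma, edgeR and DESeq2, where 0% of 19122 genes passed in either comparison by limma. At an unadjusted p under 0.05 there were 0 of the 8 and 157 genes in all for KO late, and 2 of the 8 and 4752 genes in all for KO early, while edgeR called 0 genes in both and DESeq2 called 0 and 207. The 8 log2 differences were all below 0 in KO early (median -0.57, beside -0.09 over all genes and -0.27 over the 10869 genes that averaged 100 normalised reads or more), and 7 of 8 were below 0 in KO late (median -0.44, beside 0.01 and -0.02). Several of these signs rested on 1 WT irradiated mouse. Without mouse 59 the KO late difference was 0.11 for Treh and 0.19 for Slc5a1. The KO early difference without it was 0.05 for Treh, 0.24 for Slc5a1 and 0.48 for Slc2a5. Slc2a5 in KO late was above 0 with all mice (0.04), at 0.83 without mouse 59 and -0.74 without mouse 61. Against WT non-irradiated, KO late was above 0 for Sis (0.13), Slc5a1 (0.25) and Slc2a5 (0.77), and KO early for Slc5a1 (0.30) and Slc2a5 (0.42). The KO groups share the WT irradiated mice, so these directions are not independent of each other. The ribosomal transcript Rn45s took 0.283 to 13.6% of the reads in KO late ileum, 3.81 to 29.4% in KO early ileum, 0.130 to 0.549% in WT irradiated ileum and 0.448 to 25.4% in WT non-irradiated ileum. KO early and WT irradiated ileum did not overlap in this share, and its part in the differences was not tested.

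Lct varied most in ileum, 27.1-fold between the lowest and the highest of the 12 libraries. It had 6316, 3898 and 1142.5 normalised reads in KO late ileum, 2270.0, 3659, 2402 and 487 in KO early ileum, 8821 and 4254 in WT irradiated ileum, and 12942, 8985 and 13203 in WT non-irradiated ileum. All 4 KO early libraries were below all 5 WT libraries, and 1 of the 3 KO late libraries was inside the WT range. The log2 difference from WT irradiated was -1.01 ± 0.75 in KO late (limma adjusted p = 1) and -1.79 ± 0.72 in KO early (unadjusted p = 0.0254, adjusted p = 0.169). Against the mean of both WT groups it was -1.47 ± 0.61 in KO late (adjusted p = 1) and -2.25 ± 0.56 in KO early (adjusted p = 0.0848). Over the 14 alternatives for KO early the adjusted p ran from 0.0848 to 0.759. Lct was 1.14 to 8.92% of Sis in KO late ileum, 0.785 to 6.96% in KO early ileum, 3.75 to 8.25% in WT irradiated ileum and 9.47 to 22.8% in WT non-irradiated ileum.

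Slc2a2, the exit carrier, had 1169.5, 1504 and 748 normalised reads in KO late ileum, 2117, 461, 329.5 and 559 in KO early ileum, 2754 and 1432 in WT irradiated ileum, and 1395, 938 and 4128.5 in WT non-irradiated ileum. Of the KO early libraries 3 were below all WT libraries, and the other, mouse 100, lay inside the WT range. The log2 difference of KO early from WT irradiated was -1.61 ± 0.66 (unadjusted p = 0.0295, limma adjusted p = 0.172), and it was -2.17 ± 0.51 without mouse 100 (adjusted p = 0.0837). Khk had 1582, 578 and 858.5 normalised reads in KO late ileum, 2106, 638.5, 696 and 688 in KO early ileum, 2229 and 966 in WT irradiated ileum, and 1474, 1624 and 1188.5 in WT non-irradiated ileum. Its KO early difference of -0.71 ± 0.49 was -1.12 ± 0.38 without mouse 100 (limma adjusted p = 0.346 and 0.0853). Over the 14 alternatives the adjusted p ran from 0.0837 to 0.769 for Slc2a2 and from 0.0853 to 0.962 for Khk. The ileum library of mouse 100 also held the highest value of any library for Treh, Slc5a1 and Slc2a5, and its total, 25866624 normalised reads, was the highest of the 24 libraries. In the same library Rn45s took 29.4% of the reads and 1 read was worth 2.22 normalised reads, both the highest of the 24. Without that mouse all 8 differences of KO early ileum were further below 0, from -0.58 for Slc5a1 to -2.17 for Slc2a2, and still 0 genes passed. Without WT irradiated mouse 59 they were nearer to 0 or above it for several genes, at -1.14 for Slc2a2, -0.11 for Khk, 0.05 for Treh, 0.24 for Slc5a1 and 0.48 for Slc2a5.

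For the other 5 genes the KO libraries overlapped the 5 WT ileum libraries. Slc5a1 had 28365 to 34628 normalised reads in KO late, 19480.5 to 72988 in KO early, 27689 to 50793 in WT irradiated and 19475 to 44802 in WT non-irradiated. Its log2 difference from WT irradiated was -0.24 in KO late (95% confidence interval -1.39 to 0.91) and -0.19 in KO early (-1.29 to 0.90). Sis, Mgam, Treh and Slc2a5 differed from WT irradiated by -0.81 to 0.04, with adjusted p from 0.326 to 1. In Sis and Mgam the 3 KO late libraries lay below both WT irradiated libraries, at 64457 to 100359 against 106934 and 113595 for Sis and at 75468 to 86783 against 111371 and 88762 for Mgam, and overlapped WT non-irradiated. The 95% confidence interval of Sis in KO early was -1.97 to 0.34.

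The test of whether the KO difference itself changed between the tissues (the difference of differences, colon minus ileum) called 0 of the 8 genes for KO late, where 0.189% of genes passed, and 0 of the 8 for KO early, where 0.0408% passed. With mouse as a block 130 genes passed for KO late instead of 37, and still 0 of the 8. By edgeR and DESeq2 the 8 gave 0 calls as well. By limma, 0 of the 8 had an unadjusted p under 0.05 for KO late and 2 for KO early. These 2 were Lct (2.13 ± 0.90, limma adjusted p = 0.452) and Mgam (1.34 ± 0.47, adjusted p = 0.404) in KO early. For KO late, Slc2a2 and Lct had the largest values, 1.90 ± 0.99 and 1.89 ± 0.94 (adjusted p = 0.91 for both). Both values rested on single WT irradiated mice: Slc2a2 was 0.63 without mouse 59 and 3.17 without mouse 61, and Lct was 1.06 and 2.72. Slc5a9, chosen for this difference, had 1.48 in KO late and 2.17 in KO early.

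Between KO late and KO early, 0 of the 8 genes passed in colon (where 0.00522% of genes passed) and 0 in ileum (where 0% passed), by limma, edgeR and DESeq2, and none of the 8 had an unadjusted p under 0.05. Over all genes, limma called 1 gene in colon and 0 in ileum, 2065 and 4697 genes had an unadjusted p under 0.05, edgeR called 0 in both tissues and DESeq2 called 210 and 1376. The largest of these differences was 0.78 ± 0.63 for Lct in ileum. WT irradiated was compared with WT non-irradiated, which has no time after chimerism in the labels, so irradiation and chimerism cannot be told apart. In this comparison 0 of the 8 passed in colon and 0 in ileum by the same tools, with 0 at an unadjusted p under 0.05. Over all genes, 0% passed in each tissue by limma. There, 66 genes in colon and 187 in ileum had an unadjusted p under 0.05, edgeR called 0 and 0, and DESeq2 called 0 and 2. WT irradiated minus WT non-irradiated was -0.56 ± 0.46 in colon and -0.91 ± 0.75 in ileum for Lct, and 0.74 ± 0.53 in colon and 0.72 ± 0.77 in ileum for Slc2a5, the last being -0.06 without mouse 59 and 1.504 without mouse 61.

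Around these genes, few others of the sugar lists passed in KO colon, and each call described here was lost without at least 1 of the mice. In KO late against WT irradiated, where 1.03% of all genes passed, 1 of 14 transcription factors linked to sugar genes did so: Prdm1, a repressor known from mice to hold back adult enterocyte genes before weaning, rose by 2.67 ± 0.39 on the log2 scale (limma adjusted p = 0.00593, and 0.102 without mouse 59). Prdm1 averaged 2098 ± 420 normalised reads in KO late colon, 901 ± 432 in KO early colon, 325.2 ± 26.9 in WT irradiated colon and 496 ± 74.4 in WT non-irradiated colon (SD, n = 3, 4, 2 and 3). Its difference of differences for KO late was 2.64 ± 0.48 (adjusted p = 0.0184, and 0.0539 to 0.553 without each of the 5 mice). Of 15 other brush border hydrolases 2 fell: Naaladl1, a peptidase (-2.48 ± 0.52, limma adjusted p = 0.0366), whose call was lost without mouse 49, 50, 59 or 61, and Mep1a, a meprin subunit (-1.73 ± 0.37, adjusted p = 0.0437), whose call was lost whichever of the 5 mice was left out. Trpm5, a channel of sweet taste signalling that tuft cells also use, fell by 1.67 ± 0.30 (adjusted p = 0.0165), a call lost without mouse 50, 57, 59 or 61. Among 17 other sugar transporters, 9 genes of fructose and galactose metabolism, 8 of glucose release and 17 of glycolysis, 0 passed in either direction in KO late or KO early colon by limma. In ileum, 0 genes of any list passed, as 0 genes passed in all.

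Markers of other cells were summed in the same colon groups, and the sums were not tested. The counts of called markers stand beside 1.03% of all genes in KO late. The summed level of 7 myeloid markers was 2314 to 8490 normalised reads in KO late colon, 282 to 5720 in KO early colon, 172 to 390 in WT irradiated colon and 168 to 419 in WT non-irradiated colon, and none of the 7 was at 0 throughout a group. In KO late 1 of the 7 passed, S100a8 (8.91 ± 1.65, limma adjusted p = 0.0203), a call lost without mouse 50, 57 or 59 and by edgeR (adjusted p = 0.1). A sum can rest on few genes, so it is not a measure of the number of myeloid cells. The sum of 8 leukocyte markers, Ptprc among them, was 272.3 to 748.5 in KO late colon and 274.8 to 338.9 in KO early colon. It was 220.6 to 404.3 in WT irradiated colon and 239.6 to 455.6 in WT non-irradiated colon. The sum of 10 colonocyte markers was 37007 to 72884 in KO late colon, 41461 to 105734 in KO early colon, 128171 to 130808 in WT irradiated colon and 133385 to 193989 in WT non-irradiated colon, with 2 of the 10 falling in KO late. These were Mptx1 (-7.02 ± 1.12), a call lost without mouse 59 or 61, and Slc37a2 (-4.20 ± 0.72), a call lost without mouse 50, 57 or 59. Of 7 enteroendocrine markers tested 2 fell in KO late: Chga (-3.03 ± 0.42), a call lost without mouse 59 or 61, and Pyy (-2.83 ± 0.50), a call lost without mouse 49, 50, 59 or 61. The sum of 8 Paneth cell markers was 382 to 545 in KO late colon, 477 to 1115 in KO early colon, 2827 to 4961 in WT irradiated colon and 4421 to 8816 in WT non-irradiated colon. Most of the WT sum was Ang4, an antimicrobial ribonuclease, while the defensin genes Defa3 and Defa17 were at 0 in all WT colon libraries. Of the 6 tested, Ang4 fell in KO late (-6.08 ± 0.91), a call lost without mouse 59, and 2 rose. These were Pla2g2a (2.38 ± 0.36), a call lost without mouse 59 or 61, and Mmp7 (3.05 ± 0.57), a call lost whichever of the 5 mice was left out. Pla2g2a also rose in KO early (2.49 ± 0.34), a call lost without mouse 59 or 61. The sum of 8 goblet cell markers was 64357 to 163738 in KO late colon, 76944 to 208637 in KO early colon, 150424 to 454088 in WT irradiated colon and 256755 to 452285 in WT non-irradiated colon. Of these 8, Klk1 fell in KO late (-2.47 ± 0.52), a call lost whichever of the 5 mice was left out. The part of these markers in the colon values of Mgam, Slc5a9 and Khk was not tested. Reads in 1462 olfactory and vomeronasal receptor genes, known for smell, were 741 to 1052 RPM (of all reads in genes) in KO late colon, 386 to 692 in KO early colon, 233 to 571 in WT irradiated colon and 186 to 681 in WT non-irradiated colon, and their part in the low genes was not tested.

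Across all 24 libraries the 8 genes other than Slc5a9 had like profiles, low in colon and high in ileum. Pearson r of log2 values between them ran from 0.874 (Slc2a5 with Lct) to 0.986 (Slc5a1 with Mgam), while Slc5a9 had 0.345 to 0.54 with the others. Within the 12 ileum libraries, where tissue does not enter, Slc5a1 was most like Slc2a5 (r = 0.952) and Mgam (0.907), Treh was most like Khk (0.881), and Sis most like Mgam (0.882). Lct had 0.581 with Slc2a2, 0.527 with Treh and 0.516 with Khk, but 0.146 with Mgam, 0.0776 with Sis, -0.155 with Slc2a5 and -0.156 with Slc5a1. Libraries share depth, scaling and mice, so these values are descriptions. Those of Slc5a9 include the values that chose it. The ileum library of mouse 100 was the highest of all for Treh, Slc5a1 and Slc2a5, and r without it was not computed.

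**Figure D5:**
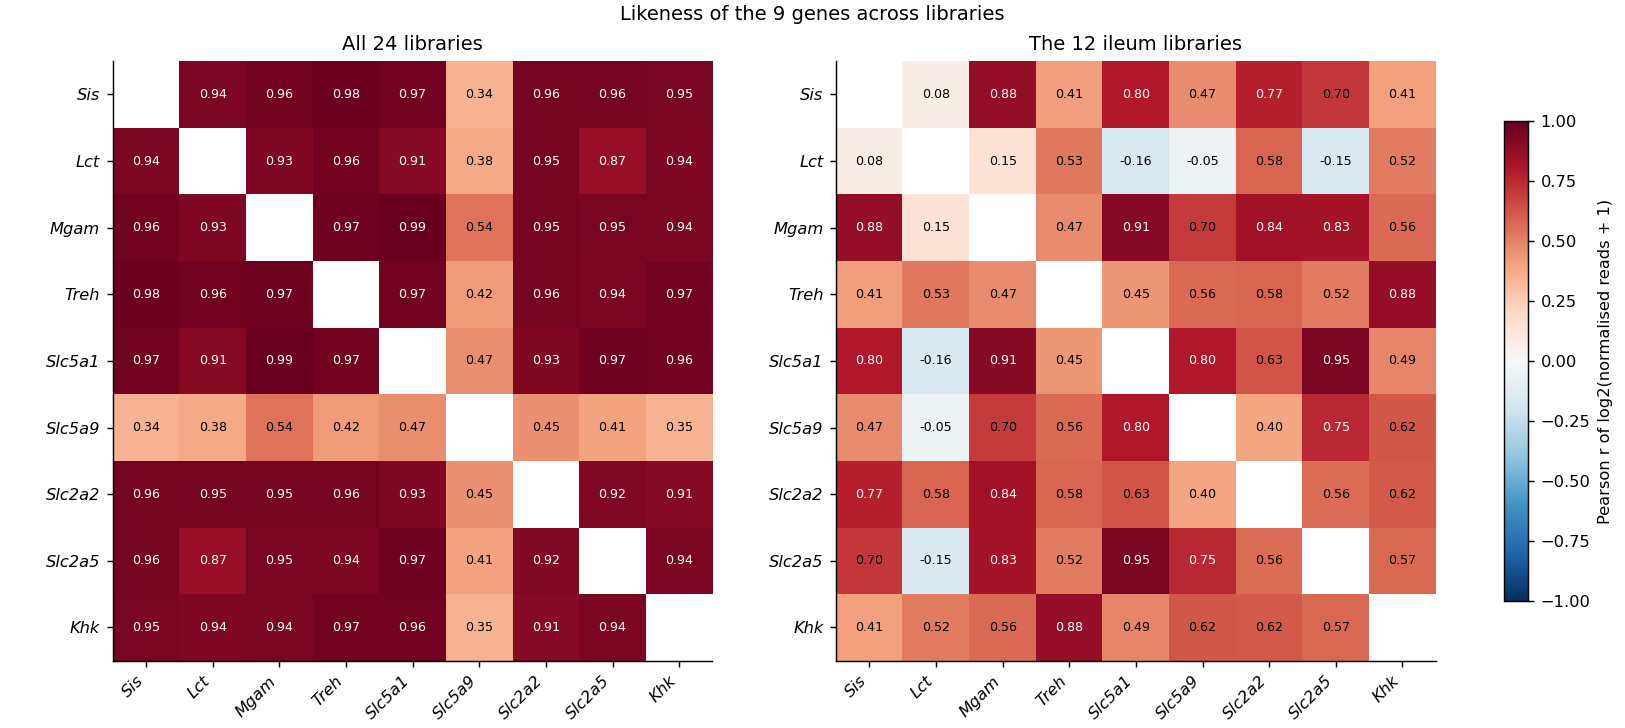
Pearson r of log2(normalised reads + 1) between each pair of the 9 genes, over all 24 libraries and over the 12 ileum libraries. Colour and the printed value give r. Slc5a9 is the gene with the lowest values over all libraries (0.345 to 0.54), and Lct has the lowest over ileum (-0.156 to 0.581). The profile of Slc5a9 includes the values that chose the gene.

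The genes with the most similar profiles were sought among 12194 genes that averaged 50 normalised reads or more in ileum. Over 24 libraries, Sis was most like Asah2, a brush border ceramidase (r = 0.993), Slc16a10 (0.991) and Abcc2 (0.991). Treh was most like Sec14l2 (0.994), Npc1l1, the cholesterol uptake protein (0.994), and Enpp7 (0.991). Mgam was most like Acsl5, an acyl-CoA synthetase (0.99), Mttp (0.99) and Mpp1 (0.989), and Slc5a1 was most like Acsl5 (0.988), Slc25a15 (0.988) and Mpp1 (0.986). Lct was most like Slc25a45 (0.982), Rdh7 (0.98) and AI427809 (0.978). Slc2a2 was most like Slc5a4a, of the same family as Slc5a1 (0.983), Bst1 (0.975) and AI427809 (0.972). Slc2a5 was most like Cyp2u1 (0.982), Slc6a4 (0.973) and Plcg2 (0.973), and Khk was most like Reep6 (0.988), Pepd (0.988) and Vav2 (0.987). The nearest to Slc5a9 were Clca4b, of a family of chloride channel regulators (0.893), and Socs3, a feedback inhibitor of cytokine signalling (0.891). Tifa, an adaptor of innate signalling, came next (0.876). These values are lower than those of the other genes, but the comparison is not an even one. The other genes differ widely between the tissues in each condition, Slc5a9 was chosen by its values, and genes low in ileum were not searched.

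The same search was made over the 12 ileum libraries. Slc5a1 was most like Atp1b1, the beta subunit of the sodium pump that drives its transport (0.963), Dlg3 (0.955) and Tnfsf12 (0.94). The ileum library of mouse 100 had the highest Slc5a1 value (72988 normalised reads), and r without it was not computed. Slc5a9 was most like Ptprh (0.961), Prepl (0.942) and Rilp (0.902), and Lct was most like Rin2 (0.95), Fam213a (0.948) and Cyp2d26 (0.929). Sis was most like Lysmd3 (0.947), Mpp1 (0.946) and Cnih4 (0.94), and Mgam was most like Asah2 (0.962), Mpp1 (0.938) and Pmel (0.932). Treh was most like Slc5a6 (0.96) and Cyp2d22 (0.95), and Khk was most like Acbd4 (0.978), Vat1 (0.974) and Crat (0.967). Slc2a2 was most like Mcur1 (0.945), Clec2e (0.944) and Pcyt1a (0.93), and Slc2a5 was most like Pacsin2 (0.973), Lima1 (0.97) and Tns4 (0.969). Mpp1 stood among the nearest genes of Mgam in both sets of libraries.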

How the data were processed

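Sorted epithelium of colon and ileum was measured in 24 libraries. Libraries were made from 100 ng of RNA by a kit for stranded total RNA that removes ribosomal RNA, and read as single ends of 50 bp, per the labels' protocols, although the molecule label says polyA RNA. Per the submitters' processing notes, the tools were bcl2fastq, HISAT 0.1.6 and HOMER with build mm9. The table deposited by the authors holds 1 signal per gene and library, a read number scaled by a size factor. Low values were whole multiples of 1 step (97.2 to 100% within 0.05), worth 0.698 to 2.22 normalised reads, and gave back whole reads. In KO early ileum mouse 118 the step was 1.01, so near to 1 that whole reads cannot be told from rounded values there, and its recovered reads are less certain. The lowest chi-square per gene between libraries of a group was 13.8, so none was counted as a copy. Replicates are animal numbers, and p-values of fits within a tissue measure the spread between them. Fits over all 24 libraries left mouse out of the model, except as an alternative. Their p-values measure the spread between libraries of a group and treat colon and ileum of a mouse as independent.

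Main test: limma 3.58.1 in R 4.3.3, with an intensity trend, on log2 of the deposited signal + 1, for genes reaching 10 normalised reads in 2 or more libraries (Benjamini-Hochberg, 13 comparisons). Fits within a tissue used its 12 libraries as 4 groups, and the others all 24. Alternatives were edgeR 4.0.16 and DESeq2 1.42.0 on the recovered reads, pseudocount 10, no filter, TMM scaling, other WT controls, only the groups compared, mouse as a block and leaving out each mouse. The fits were tested on simulated data. Colon and ileum of a mouse were paired by title number, and their deviations from the group means correlated at -0.36 to 0.56 (above 0.1 in 5 of 10 mice), so the pairing comes from the titles.

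The 9 genes and the gene lists were chosen with earlier results of these data known. All 9 are reported in all groups. From each list described, the 2 called genes with the smallest p in each direction are named, and the nearest genes by profile are the highest r, except for genes that are not reported here. Lengths are those of the longest coding transcript in GENCODE.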

Additional observations from a re-analysis of the deposited data

Results flagged for a closer look

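In KO early ileum 2 genes had a library far from the other 3 mice of its group, and in both it was mouse 100. Slc2a2 had 2117 normalised reads there, against 461, 329.5 and 559 in mice 117, 118 and 120, and the gap was 0.871 of the range of the group. Khk had 2106, against 638.5, 696 and 688, with a gap of 0.961 of the range. In all, 18 sets of 4 libraries were examined. Chance would mark about 1 in 20 independent sets, but these sets share the same libraries, so this rate does not apply to them directly. Mouse 100 also had the highest value of KO early ileum for Sis, Mgam, Treh, Slc5a1, Slc5a9 and Slc2a5 without passing the same limit, but not for Lct.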

How the results depend on the processing

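All 8 tested genes were lower in colon than in ileum in each of the 3 colon-ileum comparisons under every alternative run, including mouse as a block, which gave 8 calls in each. The 0 calls of the within-tissue and interaction comparisons held under every alternative and without each mouse (0 to 0), with 1 exception: DESeq2 gave 1 call in KO early against WT irradiated colon, Mgam (0.97, adjusted p = 0.00142). No value of a tested gene reversed a call. Counts over all genes moved more. For KO late against WT irradiated colon they ran from 163 (edgeR) to 805 (DESeq2) and from 11 to 103 without 1 mouse, beside 197, and for KO early from 23 (only the 2 groups compared) to 235 (DESeq2) and from 3 to 73, beside 39. For KO late against KO early DESeq2 gave 210 in colon and 1376 in ileum, for KO early against WT irradiated ileum 207, and for the KO early interaction 94, beside 1, 0, 0 and 8. Leaving out 1 mouse gave 2585 to 4020 genes in WT, 2797 to 3474 in KO late and 2119 to 2329 in KO early for colon against ileum, beside 4236, 5494 and 2774. Slc5a9 in colon was 1.62 above WT non-irradiated in KO late and 2.62 in KO early, beside 1.15 and 2.15 against WT irradiated, all in log2. Low colon levels of Lct, Treh, Slc2a2, Slc2a5 and Khk limit their precision, and 2 WT irradiated mice limit each comparison with them.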
